A study of Homo sapiens with 4 samples.

Results

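The genes described here are 43 listed by name: the GALNT, core 1, GCNT, core 3, ST3GAL, ST6GAL and FUT glycosyltransferases, with the core 1 chaperone C1GALT1C1 and the mucin MUC1. All 43 were found among the 60880 genes counted. LNCaP95 is an androgen-independent prostate cancer line derived from LNCaP, and LN95(KO) is LNCaP95 in which UGT2B17, an enzyme that attaches glucuronic acid to androgens, was knocked out with CRISPR. mRNA of LNCaP95 (genotype WT, replicates 1 and 2) and LN95(KO) (genotype UGT2B17 KO, replicates 3 and 4) was sequenced, with both lines grown in charcoal-stripped serum and given no treatment. The sources used here state neither how many knockout clones the LN95(KO) libraries came from nor whether 2 libraries of a line were separate cultures, so the errors and p-values cover only the spread between these libraries, and a property of 1 clone cannot be told apart from the loss of UGT2B17.

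Mucin-type O-glycans are built on serine and threonine of secreted and membrane proteins in the Golgi. A GALNT enzyme adds the first N-acetylgalactosamine (GalNAc), C1GALT1 adds galactose to make core 1, B3GNT6 adds N-acetylglucosamine (GlcNAc) instead to make core 3, and GCNT enzymes add the GlcNAc branches of core 2 and related structures. Sialyltransferases then cap chains with sialic acid and fucosyltransferases add fucose, which gives blood group and Lewis antigens. Altered O-glycans on mucins such as MUC1 are a long known feature of carcinomas, the prostate included.

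The targeted gene was near absent from both libraries labelled UGT2B17 KO and abundant in both labelled WT. UGT2B17 showed 2788 and 2748 counts in LNCaP95 against 21 and 20 in LN95(KO) (log2 fold change -7.04, SE 0.10, adjusted p = 1.18e-18). Reads assigned to genes numbered 17330338 to 18813193 a library, and at that depth 3 counts, the floor below which no level was read, were worth 0.159 to 0.173 CPM (counts scaled to library size). A larger share of read entries was not aligned in LN95(KO) (8.05% and 7.71%) than in LNCaP95 (3.85% and 3.96%), and the part of this in the values below was not tested. All 12 luminal prostate markers were expressed in both lines, with summed levels of 4119 and 4141 CPM in LNCaP95 against 4641 and 4429 CPM in LN95(KO), and within that list KLK2, KLK3 and TMPRSS2 had log2 fold changes of 4.91, 3.62 and 2.96 and FOLH1 of -1.30. Leukocyte markers summed to at most 0.339 CPM in any library, with markers such as CD3E and CD68 at 0 in all 4. Basal markers summed to 0.325 to 1.75 CPM and endothelial markers to 0.433 to 3.18 CPM, both higher in LN95(KO), and CDH5 was at 0. Fibroblast and smooth muscle markers summed to 34.9 to 42.4 CPM with DCN at 0, and neuroendocrine markers, 7 genes with CHGA at 0, summed to 54.9 and 54.3 CPM in LNCaP95 against 15.1 and 14.2 CPM in LN95(KO), most of it ENO2. The part of these shifts within the line in the changes below was not tested.

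Sequence just before 1 annotated start of each is shown for 5 genes that changed between the lines. They are in the RefSeq promoter table (GRCh38.p14, which held 33 of the 43 genes): 3 GALNT genes and FUT3, which fell, and GCNT2, which rose. Each line gives the 250 bases before the start, 5′ to 3′ on the gene's strand. Capitals mark matches, on either strand, to the GC box GGGCGG, the CCAAT box CCAAT, the TATA box TATAAA or the androgen receptor hexamer AGAACA.
GALNT3, chr2:165794248-165794497, minus strand: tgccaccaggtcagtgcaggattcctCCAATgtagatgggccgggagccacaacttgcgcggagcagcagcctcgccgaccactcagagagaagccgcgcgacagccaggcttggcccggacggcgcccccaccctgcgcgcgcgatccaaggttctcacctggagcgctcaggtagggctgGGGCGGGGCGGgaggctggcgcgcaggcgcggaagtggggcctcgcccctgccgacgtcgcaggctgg
GALNT7, chr4:173168561-173168810, plus strand: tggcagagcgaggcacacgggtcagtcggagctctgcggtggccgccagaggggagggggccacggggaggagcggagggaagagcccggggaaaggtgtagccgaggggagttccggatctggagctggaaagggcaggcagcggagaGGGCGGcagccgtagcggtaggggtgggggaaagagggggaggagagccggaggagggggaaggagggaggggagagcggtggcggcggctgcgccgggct
GALNT17, chr7:71131894-71132143, plus strand: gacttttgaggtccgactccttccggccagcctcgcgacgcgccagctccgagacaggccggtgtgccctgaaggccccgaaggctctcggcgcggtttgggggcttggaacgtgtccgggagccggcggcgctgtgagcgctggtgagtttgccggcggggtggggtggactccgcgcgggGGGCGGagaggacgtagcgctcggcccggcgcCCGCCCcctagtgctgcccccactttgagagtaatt
FUT3, chr19:5851450-5851699, minus strand: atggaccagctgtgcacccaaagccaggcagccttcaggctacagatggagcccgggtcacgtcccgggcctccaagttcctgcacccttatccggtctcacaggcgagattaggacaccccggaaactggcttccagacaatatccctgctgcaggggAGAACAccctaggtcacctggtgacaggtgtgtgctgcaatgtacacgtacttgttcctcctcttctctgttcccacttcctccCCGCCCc
GCNT2, chr6:10521101-10521350, plus strand: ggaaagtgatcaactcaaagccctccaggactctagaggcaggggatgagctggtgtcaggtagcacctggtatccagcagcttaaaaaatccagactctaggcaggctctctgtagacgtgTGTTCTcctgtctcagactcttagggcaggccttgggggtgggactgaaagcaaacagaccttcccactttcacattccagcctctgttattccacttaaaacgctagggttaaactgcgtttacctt
GALNT7 held 1 GC box, GALNT3 2 that overlap by 1 base, and GALNT17 2 that lie apart, 1 on each strand. GALNT3 also held a CCAAT box, and FUT3 a GC box and a hexamer, while GCNT2 held a hexamer and none of the other motifs. Among all 35116 promoters in the table, 42.6% held a GC box, 32% a CCAAT box, 10.7% a TATA box and 12.4% a hexamer. Among the 33 matched genes, 20 (60.6%) held a GC box, 6 (18.2%) a CCAAT box, 1 (3.03%), MUC1, a TATA box and 7 (21.2%) a hexamer. The full androgen receptor site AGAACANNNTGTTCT was in 0.00285% of all promoters and in none of the 33. The median number of CpG in the 250 bases was 21 in the matched genes and 11 in all promoters, and the median GC content was 66% and 58%. These matches describe letters in a window and were not tested against the expression values. Only 1 window was taken for each gene, and which start was used in these cells was not tested. The GCNT2 window lay inside that gene's annotated span, not before its first base, and whether the other windows shown did so was not tested.

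To determine which steps of O-glycan assembly, sialylation and fucosylation differed in mRNA between the lines, each gene was tested in a fit over all 15626 genes with enough reads. A gene was called when its adjusted p was under 0.05 and its change over 2-fold. Of the 43 genes, 30 were tested and 10 were called (33.3%), beside 18.0% of all genes tested. In LN95(KO), 4 rose (13.3% of the 30, beside 8.86% of all genes), namely GALNT18, GCNT2, FUT11 and ST3GAL6, and 6 fell (20%, beside 9.13% of all genes), namely GALNT3, GALNT7, GALNT10, GALNT17, B3GNT6 and FUT3. By adjusted p alone 22 of the 30 passed (73.3%), 8 higher and 14 lower, where 59.8% of all genes passed. The libraries of the lines did not overlap for 27 of the 30 (90%), and this was so for 79.8% of all genes. The median log2 fold change of the 30 was -0.30 and that of all genes -0.01, and the median size of the change was 0.50 and 0.37. Of the 30, GALNT17 and FUT2 passed the filter on low counts through LNCaP95 alone and ST3GAL6 through LN95(KO) alone, so the filter itself favoured a difference in these 3. In bulk RNA, fewer cells that express a gene and less RNA per cell cannot be told apart.

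**Figure D1:**
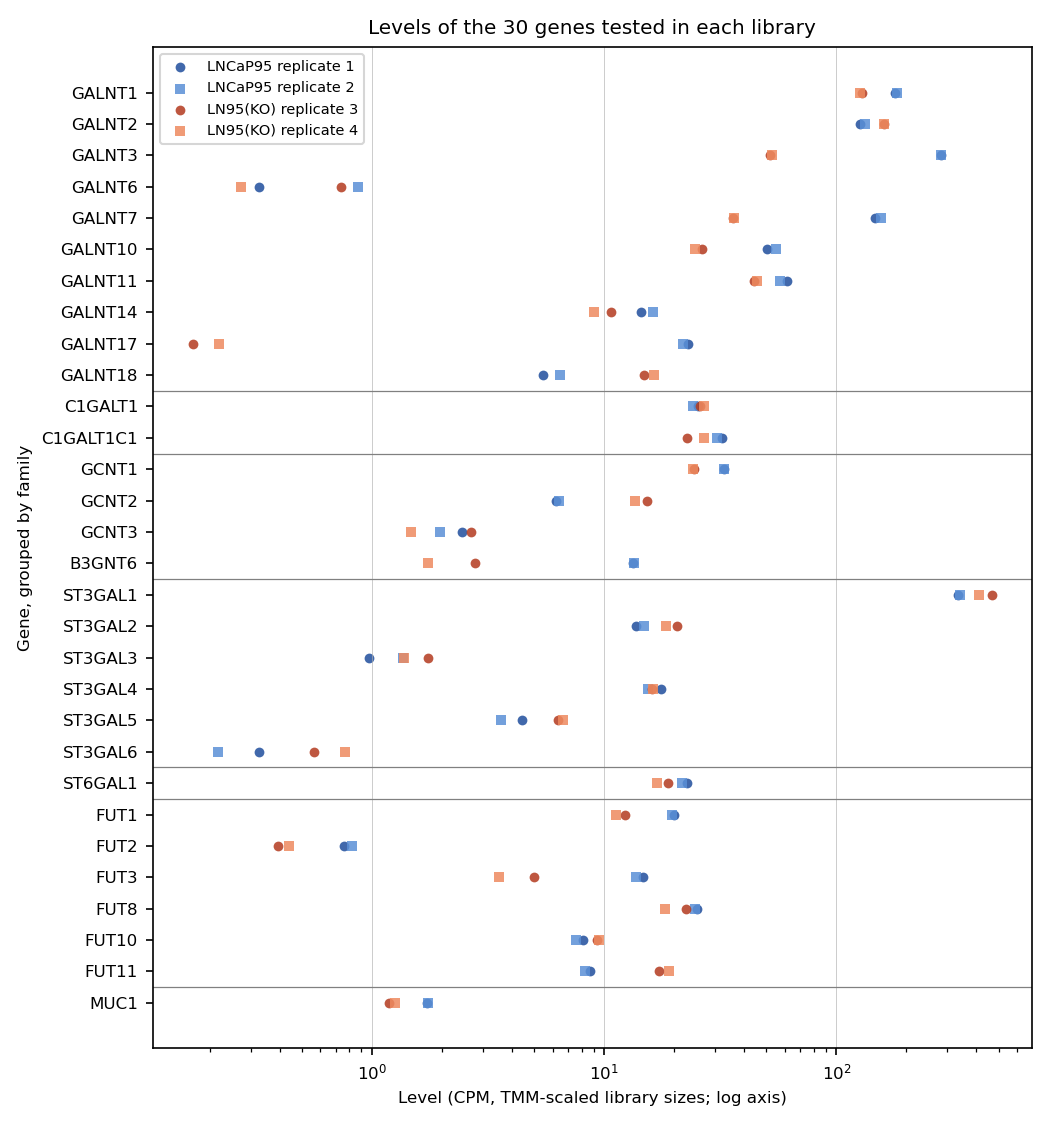
Level of each of the 30 genes tested in each of the 4 libraries, in CPM on a log axis, with grey lines between families. GALNT3 stood at 283 and 282 CPM in LNCaP95 and at 51.8 and 52.9 CPM in LN95(KO), while ST3GAL1, the gene with the highest CPM, stood at 333 and 339 CPM and at 468 and 413 CPM.

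The GALNT family, which starts the chain, held 4 of the 6 genes that fell. Of its 18 genes 10 were tested. Of these, 4 fell (40%, beside 9.13% of all genes) and GALNT18 rose (10%, beside 8.86%). GALNT3, a broadly acting initiating enzyme also known for modifying the phosphate hormone FGF23, lies on chromosome 2 (hg19, 166604098 to 166651169, minus strand, 15 exon blocks). It yielded 5224 and 5167 counts (LNCaP95) as opposed to 917 and 966 (LN95(KO)). Both LN95(KO) libraries were far below both LNCaP95 libraries, and the level went from 283 ± 0.657 CPM to 52.4 ± 0.795 CPM (mean ± SD, n = 2 in each line). The log2 fold change was -2.43 (SE 0.05, adjusted p = 1.78e-16).

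GALNT7 on chromosome 4 (174089962 to 174245118, plus strand) adds GalNAc to peptides that already carry one. Its counts were 2696 and 2855 in LNCaP95 against 632 and 661 in LN95(KO). The groups did not overlap and the log2 fold change was -2.07 (SE 0.06, adjusted p = 9.92e-15), with 7.76% of its exon bases shared with an antisense gene. GALNT10 on chromosome 5 (153570290 to 153800544, plus strand), which also prefers peptides that carry GalNAc, was counted 926 and 1002 times in LNCaP95 and 468 and 448 times in LN95(KO). Its libraries did not overlap either, and the log2 fold change of -1.04 (SE 0.08, adjusted p = 2.54e-09) lay just past 2-fold: it was -0.98, within 2-fold, without LNCaP95 replicate 2 and without LN95(KO) replicate 4, and also with library totals as the scale, with the adjusted p still under 0.05 in each.

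GALNT17 on chromosome 7 (70597130 to 71178585, plus strand, 14 exon blocks), a family member expressed mainly in the nervous system, showed 423 and 402 counts in LNCaP95 against 3 and 4 in LN95(KO). The LN95(KO) libraries were at or next to the floor of 3 counts, so the fall is given as a ratio of pooled counts, 825 to 7 reads, of 115 (95% counting interval 55.7 to 287). The fitted log2 fold change was -6.80 (SE 0.22, adjusted p = 4.36e-14). GALNTL6, a related gene outside the list of 43, had 64 and 70 counts in LNCaP95 and 2 in each LN95(KO) library, a ratio of 32.7 (95% counting interval 12.5 to 122), and it too passed the filter on low counts through LNCaP95 alone.

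GALNT18 on chromosome 11 (11292424 to 11643552, minus strand) was the family member that rose. It yielded 101 and 118 counts (LNCaP95) as opposed to 262 and 300 (LN95(KO)). Both LN95(KO) libraries exceeded both LNCaP95 libraries, at 15.6 ± 1.16 CPM against 5.96 ± 0.686 CPM, and the log2 fold change was 1.39 (SE 0.13, adjusted p = 6.17e-08).

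Among GALNT genes not called, GALNT1 and GALNT2 were the most abundant, and both are broadly expressed initiating enzymes. GALNT1 was counted 3311 and 3343 times in LNCaP95 and 2275 and 2313 times in LN95(KO) (log2 fold change -0.50, SE 0.05, adjusted p = 1.19e-07). GALNT2 showed 2347 and 2441 counts in LNCaP95 against 2847 and 2935 in LN95(KO) (log2 fold change 0.30, SE 0.05, adjusted p = 5.61e-05), with 13.3% of its exon bases shared with an antisense gene. The groups did not overlap for either gene, the first being lower and the second higher in LN95(KO), and both changes were under 2-fold. GALNT11, which acts on Notch, and GALNT14 passed by adjusted p with log2 fold changes of -0.40 and -0.63, and GALNT6, at 5 to 16 counts, had -0.25 (SE 0.55, adjusted p = 0.713) with overlapping libraries.

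Seen as a family, the GALNT mRNA pool was smaller and differently made up in LN95(KO). Summed over the 18 genes, the level per length (CPM per kilobase of the longest annotated transcript) was 229 and 234 in LNCaP95 and 119 in each LN95(KO) library, 0.512 times as much. By share of that sum, GALNT3 was the leading gene in LNCaP95 with 35.5% ± 0.618 and had 12.9% ± 0.197 in LN95(KO), while GALNT2 went from 12.7% ± 0.23 to 30.7% ± 0.00217 and GALNT1 from 19.7% ± 0.056 to 27.1% ± 0.264 (SD, n = 2). GALNT7 went from 15.3% to 7.14% of the family's level and GALNT18 from 1.03% to 5.26%. The order per length was GALNT3, GALNT1, GALNT7 and GALNT2 in LNCaP95, with 82.2, 45.6, 35.5 and 29.4 CPM per kilobase, and GALNT2, GALNT1 and GALNT3 in LN95(KO), with 36.4, 32.2 and 15.2 CPM per kilobase. Each of these neighbours was separated by more than its SD over 2 libraries.

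**Figure D2:**
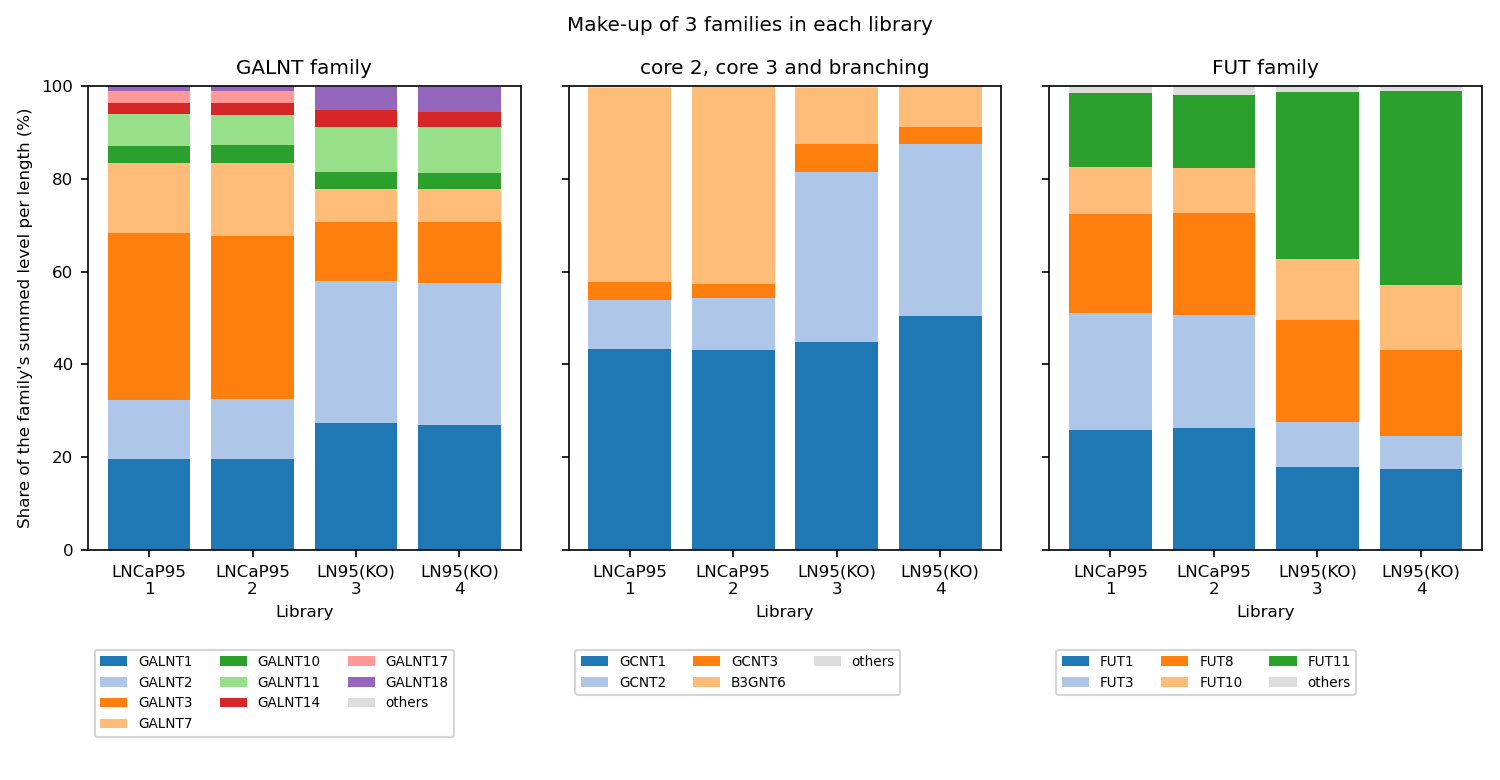
Share of each gene in its family's summed level per length, in percent, for the GALNT family, the core 2, core 3 and branching genes and the FUT family in each of the 4 libraries. GALNT3 shrank from 36% and 35.1% to 12.7% and 13% of its family, B3GNT6 from 41.8% and 42.4% to 12.2% and 8.73%, and FUT11 grew to the leading share of the FUT family. These shares rest on the lengths used. Without length, FUT8 had 22.5 and 18.3 CPM in LN95(KO) against 17.2 and 19.1 for FUT11. GCNT1 had 32.8 CPM in each LNCaP95 library against 13.3 and 13.5 for B3GNT6.

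The mRNAs for core 1 formation differed by under 2-fold. C1GALT1, the core 1 enzyme, yielded 469 and 442 counts (LNCaP95) as opposed to 459 and 490 (LN95(KO)) (log2 fold change 0.09, SE 0.08, adjusted p = 0.35), which this test did not separate from 0. C1GALT1C1 on the X chromosome encodes Cosmc, the chaperone that C1GALT1 needs to fold, and was the sixth most abundant of the 43 genes per length. It was counted 592 and 561 times in LNCaP95 and 403 and 490 times in LN95(KO), and the lines did not overlap, with a change under 2-fold (log2 fold change -0.34, SE 0.09, adjusted p = 0.00318).

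Of the 4 core 3, core 2 and branching genes tested, B3GNT6 fell (25%, beside 9.13% of all genes) and GCNT2 rose (25%, beside 8.86%). GCNT1 and GCNT3 were not called. B3GNT6 on chromosome 11 (76745442 to 76753020, plus strand, 6 exon blocks), the core 3 enzyme, showed 245 and 247 counts in LNCaP95 against 49 and 32 in LN95(KO). Its LN95(KO) libraries were both low and differed from each other more than the LNCaP95 libraries did, at 2.26 ± 0.718 CPM against 13.4 ± 0.15 CPM, and the log2 fold change was -2.57 (SE 0.18, adjusted p = 1.06e-09). GCNT2 on chromosome 6 (10492456 to 10629601, plus strand), which makes the I antigen branches on poly-N-acetyllactosamine chains rather than core 2, yielded 114 and 117 counts (LNCaP95) as opposed to 270 and 248 (LN95(KO)). The groups did not overlap, and its log2 fold change was 1.20 (SE 0.13, adjusted p = 3.05e-07).

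GCNT1, the main core 2 enzyme outside mucous tissue, was lower by under 2-fold (log2 fold change -0.44, SE 0.08, adjusted p = 0.000107). GCNT3, the mucin-type core 2 and core 4 enzyme, had 27 to 47 counts with overlapping libraries (log2 fold change -0.10, SE 0.28, adjusted p = 0.784). B3GNT6 made up 42.1% ± 0.375 of the summed level per length of these 6 genes in LNCaP95 and 10.5% ± 2.45 in LN95(KO), and GCNT2 10.8% ± 0.233 and 36.9% ± 0.194. Their sum was 12.7 CPM per kilobase in each LNCaP95 library, against 9.07 and 8.02 in LN95(KO).

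**Figure D3:**
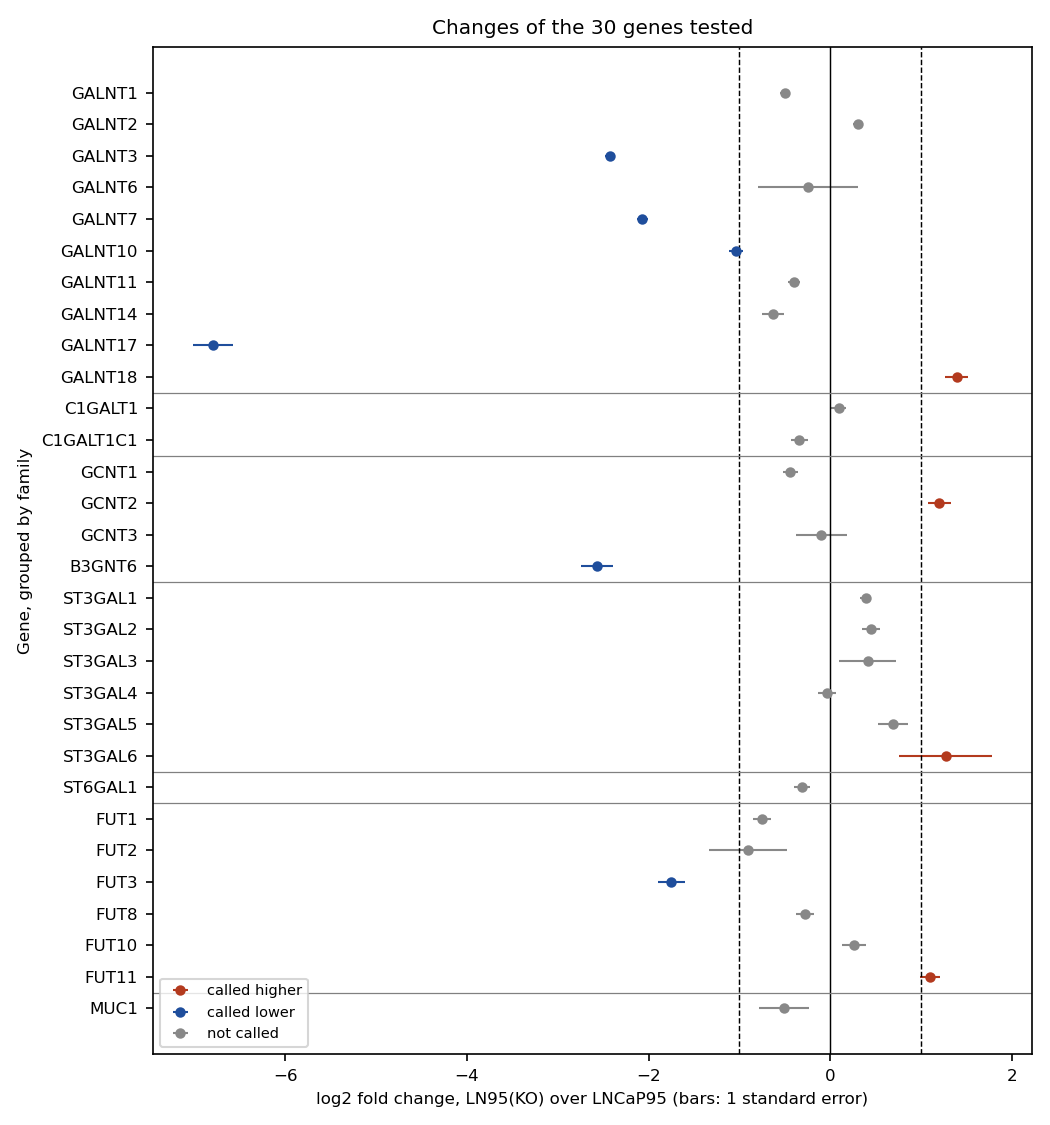
log2 fold change of each of the 30 genes tested, LN95(KO) over LNCaP95, with bars of 1 standard error, grey lines between families and dashed lines at 2-fold. GALNT17 lay farthest from 0 at -6.80, followed by B3GNT6 at -2.57 and GALNT3 at -2.43, and the 4 genes called higher lay between 1.10 and 1.39.

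Sialyltransferases of the ST3GAL family passed by adjusted p alone in 4 of 6 cases (66.7%, beside 59.8% of all genes), each higher in LN95(KO), and 1 was called (16.7%, beside 18.0% of all genes). ST3GAL1, which caps the galactose of core 1 with sialic acid, had the highest level per length of all 43 genes over the 4 libraries. It was counted 6137 and 6210 times in LNCaP95 and 8279 and 7532 times in LN95(KO), both above both LNCaP95 libraries, and its log2 fold change was 0.39 (SE 0.06, adjusted p = 1.05e-05), under 2-fold. It accounted for 82.5% ± 1.12 of the family's summed level per length in LNCaP95 and 84.9% ± 1.09 in LN95(KO), and that sum went from 58.5 in both LNCaP95 libraries to 78.5 and 70.6 CPM per kilobase.

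ST3GAL6 on chromosome 3 (98451080 to 98540045, plus strand), which sialylates N-acetyllactosamine ends, was called on very few reads: 6 and 4 in LNCaP95 against 10 and 14 in LN95(KO). Its libraries did not overlap, and the ratio of pooled counts, 24 to 10, was 2.45 (95% counting interval 1.13 to 5.75). The log2 fold change of 1.27 (SE 0.51, adjusted p = 0.0411) was not called when any of the 4 libraries was left out, when no filter on low counts was used, or with DESeq2, where the adjusted p reached up to 0.353 over these. ST3GAL2, a second core 1 sialyltransferase, and ST3GAL5, the GM3 ganglioside synthase, passed by adjusted p with log2 fold changes of 0.45 (SE 0.10) and 0.69 (SE 0.17), the second not passing with DESeq2 (adjusted p = 0.0628). ST3GAL3 and ST3GAL4 did not pass, at 0.41 (SE 0.31) and -0.04 (SE 0.10). ST6GAL1, which caps N-glycans, stood at -0.31 on the same scale (SE 0.09, adjusted p = 0.00879) and did not pass with DESeq2 or without LNCaP95 replicate 1 or LN95(KO) replicate 4 (up to an adjusted p of 0.115), and the level of ST6GAL1 per length was 0.0972 and 0.0908 times that of ST3GAL1 in LNCaP95 and 0.0575 and 0.0583 times in LN95(KO).

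Fucosyltransferases changed in composition more than in sum. FUT3 on chromosome 19 (5842899 to 5851482, minus strand, 8 exon blocks), the Lewis enzyme that makes Lewis a and sialyl Lewis a antigens, showed 272 and 251 counts in LNCaP95 against 88 and 64 in LN95(KO). The groups did not overlap, at 14.2 ± 0.73 CPM and 4.24 ± 1.04 CPM, and the log2 fold change was -1.75 (SE 0.15, adjusted p = 2.75e-08). FUT3 has close copies beside it: 12% of its 50-base windows and 6.39% of its 100-base windows also occur in FUT5, which had at most 1 count in a library, so some reads could have been left out as aligning to both.

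FUT11 on chromosome 10 (75532034 to 75540009, plus strand) yielded 161 and 151 counts (LNCaP95) as opposed to 305 and 349 (LN95(KO)). Both LN95(KO) libraries were above both LNCaP95 libraries, and the log2 fold change was 1.10 (SE 0.11, adjusted p = 1.93e-07). For FUT11, 16.4% of exon bases overlap an antisense gene. Counting did not use strand, so reads of either gene there would mostly be set aside as ambiguous.

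FUT1, which makes the H antigen, was lower by under 2-fold (log2 fold change -0.75, SE 0.10, adjusted p = 5.57e-06). FUT8, the core fucosyltransferase of N-glycans, stood at -0.28 (SE 0.10, adjusted p = 0.0202) and did not pass with library totals, with DESeq2, or without LNCaP95 replicate 1 or LN95(KO) replicate 4 (up to an adjusted p of 0.223). FUT10 did not pass at 0.26 (SE 0.13, adjusted p = 0.0892), and FUT2, the secretor enzyme, had 7 to 15 counts and -0.91 (SE 0.43, adjusted p = 0.0819). Per length the family summed to 22.7 and 21.8 CPM per kilobase in LNCaP95 and 20 and 19.1 in LN95(KO). Within that sum FUT3 went from 24.9% to 8.44% and FUT11 from 15.9% to 38.8%. The level of FUT3 per length was 1.59 and 1.56 times that of FUT11 in the LNCaP95 libraries and 0.271 and 0.172 times in the LN95(KO) libraries.

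MUC1, the transmembrane mucin whose tandem repeats carry many O-glycans, was expressed at a low level in both lines. It had 32 counts in each LNCaP95 library, against 21 and 23 in LN95(KO). The LN95(KO) libraries were lower without overlap, yet the log2 fold change of -0.51 (SE 0.28, adjusted p = 0.13) did not pass. Counting leaves out reads that align to more than 1 place, and how many MUC1 repeat reads this removed was not tested.

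The 13 genes not tested had at most 16 counts in any library. GALNT5, GALNT13 and B3GNT3 had no read in any library. GALNT4 (0 to 3 counts), GALNT8 (0 to 1), GALNT9 (1 to 6), GALNT12 (0 to 1), GALNT15 (0 to 3), GALNT16 (1 to 2), GCNT4 (0 to 4), ST6GAL2 (0 to 2), FUT4 (3 to 16) and FUT6 (1 to 7) had some. FUT4 was counted 5 and 3 times in LNCaP95 and 16 and 8 times in LN95(KO), and was called higher when no filter on low counts was used and when LN95(KO) replicate 4 was left out. For GALNT4, 94.1% of the exon bases lie in the read-through gene POC1B-GALNT4, so its own reads would mostly be set aside as ambiguous. Such counts are no measure of absence: NEU1 and FUCA2, which are widely expressed, also had at most 1 count in a library, and why was not tested.

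Genes that supply the sugar donors were set beside the transferases. Of 7 sialic acid genes tested and of 7 GDP-fucose genes tested, edgeR and DESeq2 each called 0, where edgeR called 18.0% of all genes. By adjusted p alone 1 and 4 passed (14.3% and 57.1%, beside 59.8% of all genes), and 3 and 4 did at an unadjusted p under 0.05. In the fucose list GMDS and GFUS, the enzymes that make GDP-fucose from GDP-mannose, had log2 fold changes of 0.65 (SE 0.09, adjusted p = 6.05e-06) and 0.53 (SE 0.06, adjusted p = 7.68e-07) and were named after their values were seen. In the list of UDP-GalNAc, UDP-GlcNAc and UDP-galactose supply, 15 genes were tested and 1 was called (6.67%, beside 18.0% of all genes). By adjusted p alone 5 genes of this list were higher and 5 lower (66.7% together, beside 59.8% of all genes). Named from it after their values were seen, GFPT1, the entry enzyme of the hexosamine pathway, stood at -0.88 (SE 0.05, adjusted p = 2.66e-10) and PGM3, a later step, at -0.74 (SE 0.07, adjusted p = 4.18e-08), whereas UAP1, the last step to the UDP-sugar, stood at 0.74 (SE 0.05, adjusted p = 6.69e-10).

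Of 14 chain extension transferases tested, 1 rose and 3 fell (28.6% called, beside the 18.0% of all genes). B3GNT5, which starts lacto-series glycolipids, showed 39 and 44 counts in LNCaP95 against 158 and 123 in LN95(KO) (log2 fold change 1.79, SE 0.19, adjusted p = 4.23e-07). B4GALT6, a lactosylceramide synthase, yielded 222 and 204 counts (LNCaP95) as opposed to 94 and 91 (LN95(KO)) (log2 fold change -1.17, SE 0.14, adjusted p = 1.04e-06). B4GALNT3, which makes the LacdiNAc end group, had 79 and 82 counts and then 26 and 20 (log2 fold change -1.77, SE 0.23, adjusted p = 4.1e-06). The libraries did not overlap for these genes, and B3GNT9, the remaining gene that fell and named after its values were seen, went from 52 and 43 counts to 18 and 17. Of 2 ST6GALNAC genes tested 1 was called, and of 3 ST8SIA genes 3 were, 2 higher and 1 lower, beside the 18.0% of all genes. DESeq2 called 2 genes of the ST8SIA family. Of the 2 called higher, 1 passed the filter on low counts through LN95(KO) alone, so the filter favoured a difference in it. ST6GALNAC1, which caps GalNAc itself, rose from a single count per LNCaP95 library to 1639 and 1694 counts (pooled ratio 1705, 95% counting interval 472 to 14082), and the polysialyltransferase ST8SIA4 was counted 2940 and 2830 times in LNCaP95 and 1 and 0 times in LN95(KO) (pooled ratio 5641, 95% counting interval 1012 to 222837), each having passed the filter on low counts through 1 line alone.

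**Figure D4:**
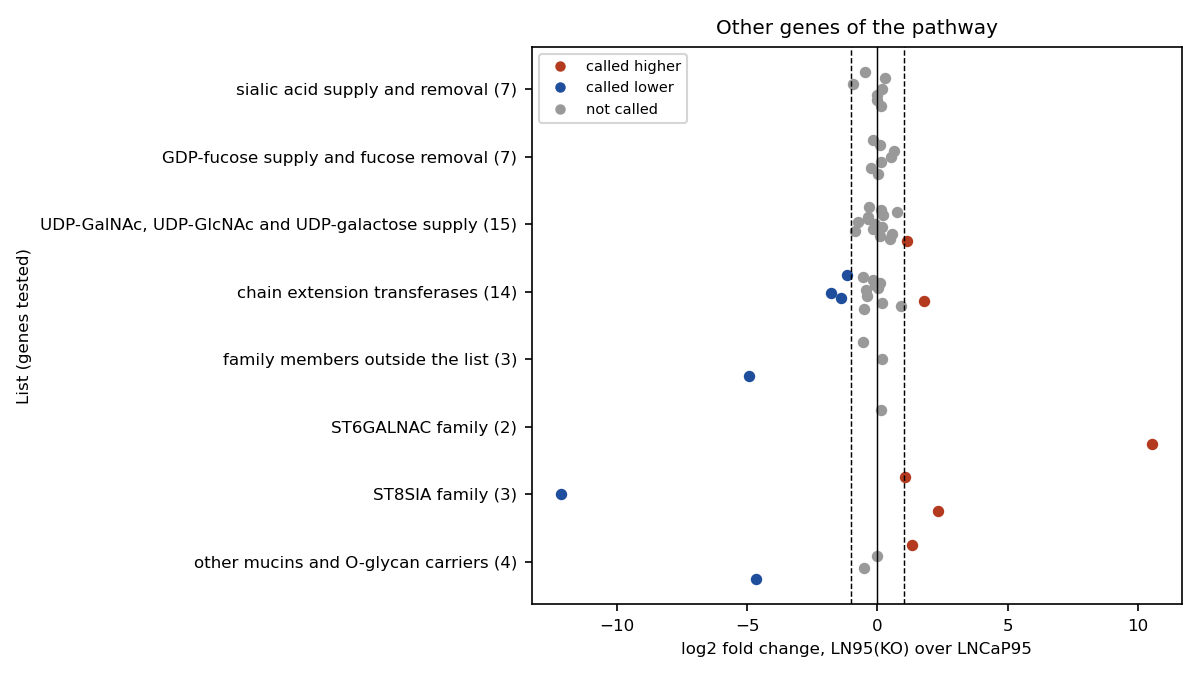
log2 fold change, LN95(KO) over LNCaP95, of each tested gene in 8 other lists of the pathway, with the number tested in brackets and dashed lines at 2-fold. None of the 14 sialic acid and GDP-fucose supply genes passed 2-fold with an adjusted p under 0.05, and ST6GALNAC1 and ST8SIA4 lay farthest from 0.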

How the data were processed

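mRNA was enriched with oligo(dT) and sequenced on the DNBseq platform. The authors aligned the reads with HISAT2 2.1.0 to hg19, then used HTSeq with GENCODE release 29, ignoring strand per the file names, and the deposited values are raw counts. The whole-series table and the single files differed in 0 cells. Of 60880 identifiers, 59899 were given a symbol from GENCODE release 44 mapped to GRCh37, the build of hg19, which also gave positions, transcript lengths and exon overlaps. The symbols, family members and pathway lists were chosen with earlier results of these data known.

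Counts were tested with edgeR 4.0.16 in R 4.3.3 (quasi-likelihood F test, robust, TMM factors, filterByExpr with a minimum count of 10, no covariates), with Benjamini-Hochberg adjustment over 15626 genes, and calls needed an adjusted p under 0.05 with a change over 2-fold. CPM used TMM-scaled library sizes. The common biological coefficient of variation was 4.27%. An exact permutation test on 2 against 2 libraries cannot go below p = 0.333, so none was used. Ratios of pooled counts were scaled to library size, and their 95% exact intervals cover counting error only. Values by library were given for called genes, the 6 with the highest level per length and MUC1, and from each other list at most 2 called genes in each direction (B3GNT9, C1GALT1, FUT4 and the genes said to be named after their values were seen are additions). Alternatives were other scalings, no filter, DESeq2 1.42.0, glmTreat, adjusted p alone and leaving out each library. A few genes of the lists are not reported here. Columns of per-sample values left out numbered 0. Lines of each file that name no gene (5 in each) stayed out of library sizes, and gene reads were 72.5% to 76.2% of entries.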

Additional observations from a re-analysis of the deposited data

Results flagged for a closer look

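In lines of the count files that name no gene, the lowest share of entries not aligned in LN95(KO) was 7.71%, above both LNCaP95 libraries (3.85% and 3.96%). The lowest LN95(KO) share of aligned entries that aligned more than once was 4.12%, above 3.94% and 3.96% in LNCaP95. Both are shares of whole libraries, and their part in the values of the glycosyltransferase genes was not tested.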

How the results depend on the processing

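With 2 libraries a line, the calls rest on the spread between 2 libraries, and members with under about 20 counts were measured with wide error. No called result reversed its direction under any of these alternatives. Of the glycosyltransferases, 1 (GALNT18) was called higher and 5 lower by glmTreat, which tests against 2-fold itself, so that GCNT2, FUT11, ST3GAL6 and GALNT10 lost their calls there (adjusted p from 0.164 to 0.785), and by adjusted p alone 8 were higher and 14 lower. Over all genes the count of 2811 was 1687 by glmTreat and 9349 by adjusted p alone. With no filter and with DESeq2, the ST3GAL family had 0 calls in each and the list of other mucins and carriers 1 in each. Leaving out 1 library gave 3 to 4 called higher, 5 to 6 called lower, 2539 to 2777 over all genes, a log2 fold change of UGT2B17 of -7.09 to -6.98 and a median log2 fold change of the members of -0.41 (without LN95(KO) replicate 3) to -0.18 (without LN95(KO) replicate 4), against -0.30 with all. Other scalings moved the median of all genes by at most 0.06. Besides glmTreat, GALNT10 and ST3GAL6 lost their calls under the settings given with them, and FUT8, ST6GAL1 and ST3GAL5, not called, no longer passed by adjusted p under 4, 3 and 1 settings; ST3GAL4, GALNT6 and GCNT3, none of them called, changed sign under some. No paired analysis was run, because the labels (replicates 1 and 2 for LNCaP95, 3 and 4 for LN95(KO)) state no pairs.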

Other observations

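Of 19 other mucins and O-glycan carriers matched, 4 had enough reads to test. MUC13, a transmembrane mucin, showed 60 and 50 counts in LNCaP95 against 3 and 1 in LN95(KO). The ratio of pooled counts was 26.9 (95% counting interval 10.2 to 100), and its adjusted p was 7.42e-08. Its fitted log2 fold change of -4.67 ranged from -5.60 to -4.08 when 1 library was left out. SELPLG, which encodes the selectin ligand PSGL-1, yielded 3 and 7 counts (LNCaP95) as opposed to 12 and 13 (LN95(KO)). The pooled ratio was 2.56 (95% counting interval 1.19 to 5.97), with an adjusted p of 0.0357. SELPLG was not called with no filter or with DESeq2, and its log2 fold change was 0.85 to 2.05 when 1 library was left out. MUC13 passed the filter on low counts through LNCaP95 alone and SELPLG through LN95(KO) alone, so the filter favoured a difference in both. PODXL, the most abundant of the 4 and named after its values were seen, was counted 814 and 884 times in LNCaP95 and 790 and 832 times in LN95(KO) (log2 fold change -0.03, SE 0.07).

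Enzymes that act on the same glycan structure can be set side by side by level per length. The level of C1GALT1 per length was 0.764 and 0.714 times that of B3GNT6 in LNCaP95 and 3.74 and 6.11 times in LN95(KO). The order in LNCaP95 rests on the lengths used, 6275 bases for C1GALT1 and 2503 for B3GNT6. In counts C1GALT1 was above B3GNT6 in every library, with 469 and 442 against 245 and 247 in LNCaP95. ST3GAL1, which caps core 1, stood at 8.72 and 8.88 times GCNT1, which branches it, in LNCaP95 and at 16.5 and 14.6 times in LN95(KO). Of 8 glycosylation genes known to respond to androgen in prostate cancer cells, 2 were called higher, ST6GALNAC1 and CSGALNACT1 (48 and 50 counts in LNCaP95, 293 and 326 in LN95(KO), log2 fold change 2.69, SE 0.14, adjusted p = 3.43e-11), and 1, GALNT7, lower (25% and 12.5%, beside 8.86% and 9.13% of all genes). By adjusted p alone 7 of the 8 passed (87.5%, beside 59.8% of all genes), UAP1 with those higher and PGM3, GCNT1 and ST6GAL1 with GALNT7 lower.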
